A study of Mus musculus with 4 samples.

Results

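The Cyp4 fatty acid hydroxylases were followed in the liver of diet-induced obese (DIO) mice that had received GALP through the nose. GALP, galanin-like peptide, is a neuropeptide of the hypothalamus. The members are 10 genes, Cyp4a10, Cyp4a12a, Cyp4a12b, Cyp4a14, Cyp4a31, Cyp4b1, Cyp4f13, Cyp4f14, Cyp4f15 and Cyp4v3. Every probe that carries one of these names on the array was taken, which gave 13 probes for 10 of the 26518 gene names measured. Male C57BL/6 mice, 8 weeks old at purchase, were kept on a high-fat diet over 14 weeks and weighed at least 40 g. They then received 2 µL of porcine GALP or of saline intranasally once a day for 11 days, still with free access to the high-fat diet. GALP was dissolved in saline with α-cyclodextrin, and the controls received saline. The 4 mice of the GALP group that lost more weight gave 1 pool of liver RNA (greater weight loss), and the 4 that lost less gave the other (less weight loss). The RNA of 8 saline-treated mice formed a single control pool. The labels name no transgene or deletion in any group.

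Each GALP pool was hybridised with the control pool on 2 dual-colour Agilent arrays with the dyes exchanged, so that GALP RNA carried Cy5 on one array and Cy3 on the other. All 4 arrays lay on 1 slide. Both arrays of a pool held the same RNA, and their mean was taken as 1 value, so that SDs are between 2 values, 1 from each GALP pool. The spread between single mice was not measured, and the spread of the control pool enters no SD and no test. In liver tissue, fewer cells of a type and less RNA per cell cannot be told apart. A signal well above background was recorded for 42.8% to 46.7% of the spots in the GALP channel and for 40.5% to 46.5% in the control channel. Of the 9 hepatocyte markers, 7 were on the array and all 7 had signal, with a median log2 ratio of 0.01.

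Enzymes of the Cyp4 family are cytochromes P450 of the endoplasmic reticulum that add a hydroxyl group to the end (omega) carbon of fatty acids. The Cyp4a enzymes act on medium- and long-chain fatty acids and on arachidonic acid, from which they form 20-HETE, a lipid that acts on blood vessels. The Cyp4f enzymes also act on leukotriene B4 and on long-chain fatty acids. Cyp4a10 and Cyp4a14 are classical target genes of the nuclear receptor PPARα in mouse liver, and Cyp4a12a is the member with higher expression in males.

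Most Cyp4 probes lay near the control level after GALP. The Cyp4a12a probe had the lowest mean, at 0.64 of the control level with less weight loss and at 0.90 with greater weight loss. It is listed for Cyp4a12a, the main enzyme of 20-HETE synthesis in male mice, and also for Cyp4a12b. Cyp4a12b and Cyp4f14 were at 0.73 of control with less weight loss, and with greater weight loss they were at 1.00 and 0.89. Cyp4f15 had the highest mean, at 1.28 of control for greater weight loss and 1.13 for less. None of the 13 probes met the rule of the methods in both pools.

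The probes are 60-base oligonucleotides in the sense of the messenger RNA. On the mouse build mm9, the 9 probes of the Cyp4a genes and Cyp4b1 lay on chromosome 4, those of Cyp4f13, Cyp4f14 and Cyp4f15 on chromosome 17, and that of Cyp4v3 on chromosome 8. The files give a position in the transcript but no exon or UTR. The sequences of the probes that showed the lowest and highest ratios, and of the Cyp4a10 probes that can be set beside each other, are given here because they show which stretch of transcript each value was read from. Capitals mark the polyadenylation hexamer where the printed stretch holds it. For probes near the end of a transcript the last 30 bases are printed, and for the others the whole probe.

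Cyp4a12a (last 30 bases): aagagtcttgccatcttccccacAATAAAg
Cyp4a12b (whole probe): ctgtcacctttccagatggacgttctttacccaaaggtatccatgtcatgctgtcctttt
Cyp4f14 (last 30 bases): agggatgtctgagcaagaggccagaatcaa
Cyp4f15 (last 30 bases): gagataaagggaagtgtctaggcaggatgg
Cyp4a10 probe 1 (last 30 bases): AATAAAgttcccagtgtcatgcacaaaaaa
Cyp4a10 probe 3 (whole probe): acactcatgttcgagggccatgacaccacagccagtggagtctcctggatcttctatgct
Cyp4a10 probe 4 (whole probe): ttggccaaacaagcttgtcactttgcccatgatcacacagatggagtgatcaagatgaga

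The Cyp4a12a probe lay at chr4:115005343-115005402 on the plus strand, from base 2344 of its transcript, and holds the hexamer AATAAA followed by a single last base. The Cyp4a12b probe lay at chr4:115106662-115107596 on the plus strand, from base 1239. That genomic span of 935 bases is longer than the probe, so the probe crosses at least 1 exon junction. No member probe shared a run of 20 bases with a probe of any other name on the array, and the longest run shared by any pair of member probes was 10 bases. Nevertheless, for 5 of the 13 probes the files list transcripts of a further gene. Both the Cyp4a12a and the Cyp4a12b probe are listed for the transcripts of both genes, so their values belong to the pair of genes rather than to either one. Probes 2 and 4 of Cyp4a10 are also listed for Cyp4a32, probe 3 of Cyp4a10 matched no gene through its listed transcripts, and the Cyp4b1 probe is also listed for the pseudogene Cyp4b1-ps2.

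Values are given as log2 ratios of GALP over control, where 0 means equal levels, and of each pool the array with GALP in Cy5 is given first. The paper used folds above 1.5 or below 0.75 and a p-value of the scanner software under 0.01, and selected changes common to both pools. It does not state how the p-value was combined over arrays. The rule of the methods is a strict reading made here. It asked for the fold in both pools, and for the p-value and the same direction on all 4 arrays. By this rule 0 of the 13 Cyp4 probes were called higher and 0 were called lower, beside 0.0585% and 0.132% of the 41037 probes tested. These shares are 24 and 54 probes. The paper reports more genes than that as increased and a similar number as decreased, so the rule is stricter upwards. Of the genes named below, Cidec, Fmo2, Adh4 and Cfd met the fold and the direction and were not called because of the p-value. With limma on the ratios of both pools, 0 of the 13 probes passed an adjusted p of 0.05, as did 0% of all probes. At an unadjusted p under 0.05 (limma), 1 of the 13 passed, and 4759 of the 41037 probes tested did, which is a larger share. With 1 residual degree of freedom the fit over all probes had little chance to call any probe, so its count of 0 says nothing about whether levels differed. Adjusted p-values of the 13 probes ranged from 0.38 to 1.00 (limma, Benjamini-Hochberg).

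A probe had signal where at least 1 channel was well above background on every array, and 12 of the 13 probes had signal, covering 9 of the 10 genes. For those 9 genes, with the brightest probe for each, the median log2 ratio was 0.02. The median was −0.01 over the 11400 genes with signal. In the pool with greater weight loss the median of the Cyp4 genes was −0.01, and in the pool with less weight loss it was 0.03. By the mean of both pools 6 of the 9 genes were above 0 and 3 were below. Cyp4a12a and Cyp4a12b are counted apart here and in the medians, although both probes are listed for both genes. The family as a whole thus had a median close to that of all genes. The median absolute log2 ratio was 0.14 for the 12 Cyp4 probes with signal and 0.10 for all probes with signal. Differences between the members were not tested.

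**Figure D1:**
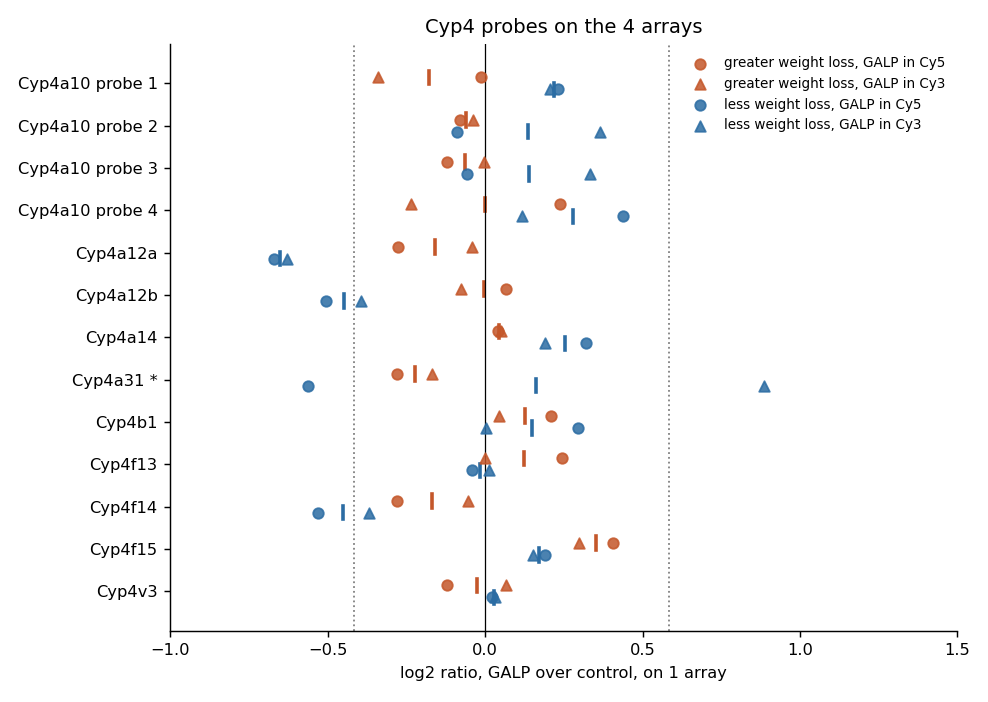
Log2 ratio of GALP over control (horizontal axis) for the 13 Cyp4 probes on each of the 4 arrays; circles are arrays with GALP in Cy5, triangles arrays with GALP in Cy3, short bars the mean of a pool and dotted lines the folds of 0.75 and 1.5. Cyp4a12a, Cyp4a12b and Cyp4f14 lie to the left with less weight loss, Cyp4f15 lies to the right on all arrays, and the asterisk marks Cyp4a31, the probe without signal.

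Of the Cyp4a12 pair, the Cyp4a12a probe gave log2 ratios of −0.28 and −0.04 with greater weight loss and of −0.67 and −0.63 with less weight loss. It was below 0 on all 4 arrays. The ratios are formed from the processed signals, which give the levels and no further support. The control pool gave 6962, 5785, 7307 and 6685 units on the 4 arrays, and the GALP pools gave 5751 and 5622 units for greater weight loss and 4587 and 4319 units for less. The lowest control signal thus lay above the highest GALP signal, but with greater weight loss the gap was small. All 4 GALP signals lay below all 4 control signals for 2.5% of the 15713 probes with signal. The mean log2 ratio was −0.40 ± 0.35 (SD, n = 2), with a 95% interval of −1.67 to 0.86 and an adjusted p of 0.70 (limma).

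In the pool with less weight loss taken by itself, Cyp4a12a met the rule of the methods, with a fold of 0.64 and software p-values of 0.00162 and 0.00295. It was the single Cyp4 probe that did so, and 0.363% of the 41037 probes were called lower in that pool. These p-values come from the error model of the scanner software and compare the 2 extracts on 1 array, not groups of mice. No Cyp4 probe was called higher in that pool, where 0.234% of all probes were. With greater weight loss 0 Cyp4 probes were called in either direction, beside 0.395% of all probes called lower and 0.292% called higher.

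The Cyp4a12b probe read a different stretch of the same pair of transcripts. It gave 0.07 and −0.08 with greater weight loss and −0.50 and −0.39 with less weight loss. The mean of the pool with greater weight loss was at the control level. The GALP signals with less weight loss were 1813 and 1889 units, against 2573 and 2481 units for the control pool on the same arrays. The mean was −0.23 ± 0.31 (SD, n = 2; 95% interval −1.36 to 0.91; adjusted p = 0.70, limma). The software p-values with less weight loss, 0.0159 and 0.058, did not meet the threshold of 0.01.

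Between the GALP pools the Cyp4a12a probe differed by 0.49 and the Cyp4a12b probe by 0.44 on the log2 scale, each lower with less weight loss. These were the 2 Cyp4 probes of the 12 with signal that were lower with less weight loss by over 0.4, a size that 4.02% of all probes with signal reached. That size belonged to no planned test and lies just below the values of both probes, so the count gives no support. Cyp4a10 probe 1 differed by −0.40, the other way. The Cyp4a12a and Cyp4a12b probes are listed for the same pair of genes, so they do not count as 2 genes. With 1 pool a group the difference between the pools has no test. The arrays of a pool differed from each other by 0.23 and 0.04 for Cyp4a12a and by 0.14 and 0.11 for Cyp4a12b, which is technical spread. For Cyp4a12a the difference between pools ran from 0.38 to 0.61 and for Cyp4a12b from 0.32 to 0.57 over the 12 alternatives that gave one.

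**Figure D2:**
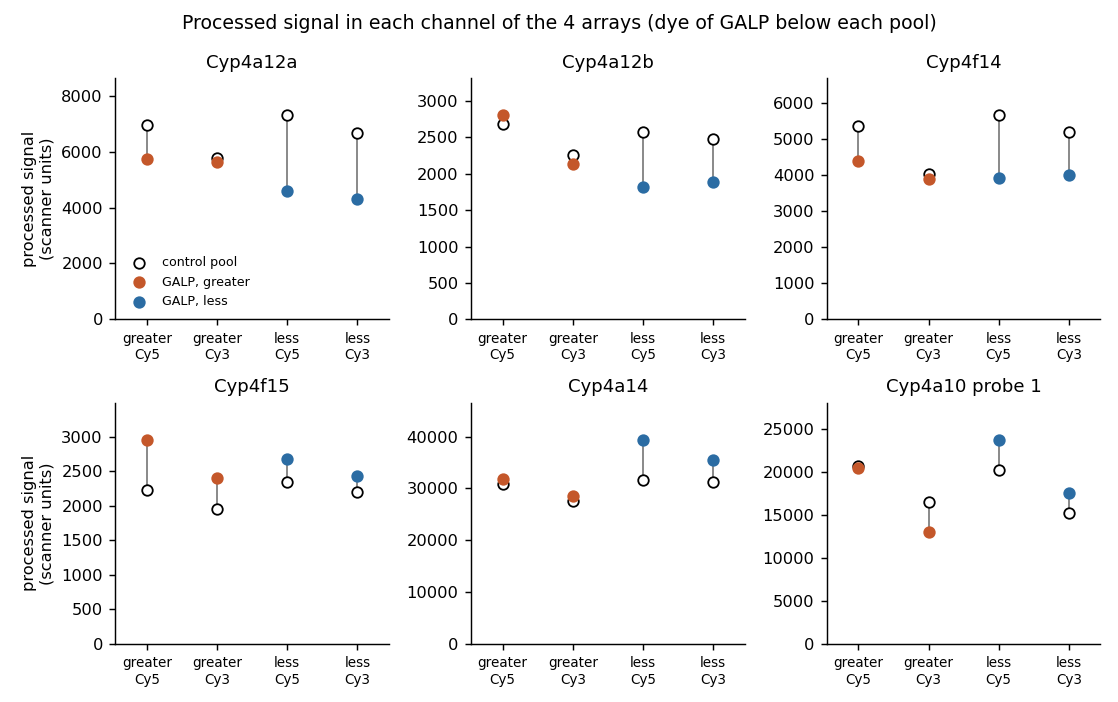
Processed signal (vertical axis, scanner units, from 0) of the control pool (open circles) and the GALP pool (filled circles) on each array for 6 Cyp4 probes, with the pool and the dye of GALP on the horizontal axis. For Cyp4a12a, Cyp4a12b and Cyp4f14 the GALP signal lies well below the control signal on both arrays with less weight loss; for Cyp4f15 it lies above on all 4 arrays.

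Cyp4a14 and Cyp4a10 are the members most strongly induced by PPARα agonists and by fasting. The Cyp4a14 probe, at chr4:115158914-115158973 on the minus strand, gave 0.04 and 0.05 for greater weight loss and 0.32 and 0.19 for less. It was above 0 on all 4 arrays, with a mean of 0.15 ± 0.15 (SD, n = 2; 95% interval −0.39 to 0.69). Its signals were 31800, 28530, 39430 and 35550 units for GALP and 30920, 27580, 31610 and 31170 units for control, and the ranges of the groups overlapped.

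Cyp4a10 was read by 4 probes. The brightest, probe 1 at chr4:115206200-115206259 on the plus strand, gave −0.01 and −0.34 with greater weight loss and 0.23 and 0.21 with less weight loss. The pools thus lay on opposite sides of 0, with a mean of 0.02 ± 0.28 (SD, n = 2). Probe 2 gave −0.06 for greater weight loss and 0.14 for less, and probe 3 gave −0.06 and 0.14. Probe 4, the dimmest, gave 0.00 and 0.28. The differences between the pools (greater minus less) were −0.40, −0.20, −0.20 and −0.28 on the log2 scale. They are read from the same RNA, so they count as 1 gene and not as 4 replicates. For probes 2 and 3 the arrays of the pool with less weight loss differed by 0.45 and 0.39, which is more than the difference between pools. Without the array of less weight loss with GALP in Cy3, the difference between pools was 0.03 for probe 2 and −0.007 for probe 3. With only the arrays with GALP in Cy5 it was 0.01 for probe 2 and −0.07 for probe 3. Within the pool with greater weight loss the arrays differed by 0.33 for probe 1 and by 0.47 for probe 4. Without the array of greater weight loss with GALP in Cy3, the difference between pools was −0.23 for probe 1 and −0.04 for probe 4. For probe 4 it was −0.12 without the array of less weight loss with GALP in Cy5, and −0.03 with normexp and loess. The direction held for probe 1, from −0.56 to −0.23 over 12 alternatives, and leaving out 1 array moved the difference by more than 1.5 times for each of the 4 probes.

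The differences between the pools ran opposite ways for the Cyp4a12 pair and Cyp4a14. Cyp4a12a and Cyp4a12b were lower with less than with greater weight loss, and Cyp4a14 was higher. Of Cyp4a10, probe 1 ran the same way as Cyp4a14, while probe 2 changed direction and probes 3 and 4 came near 0 under the alternatives given above. For Cyp4a14 the difference was −0.21 (greater minus less), and it ran from −0.28 to −0.14 over 12 alternatives.

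Cyp4a31, a close relative of Cyp4a10, was read at chr4:115242824-115242883 on the plus strand. It was well above background on 1 of the 4 arrays in the GALP channel and on 1 in the control channel. Its ratios ran from −0.56 to 0.88 on the arrays of the pool with less weight loss alone, and its GALP signals were 26.3 to 36.9 units. No direction could be read from it, and it was left out of the medians.

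**Figure D3:**
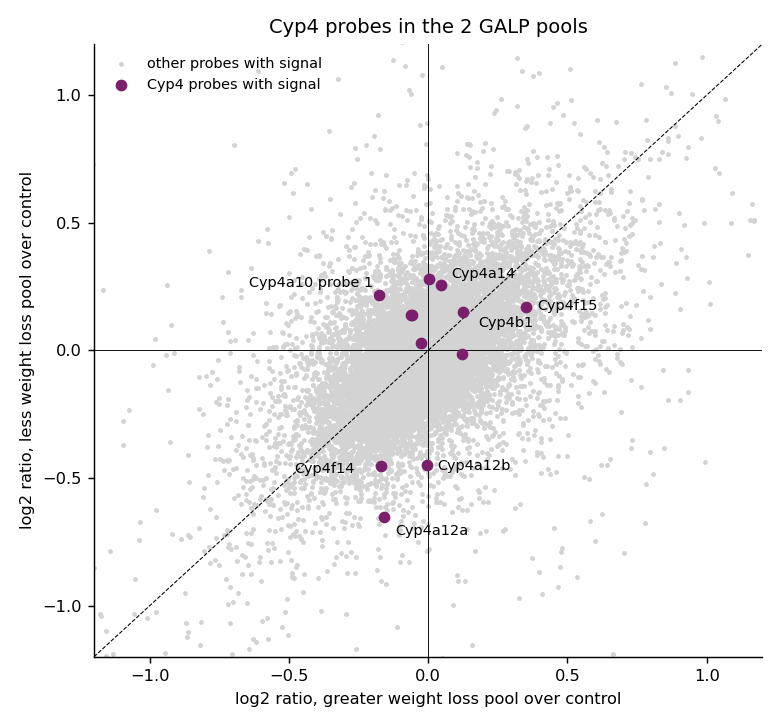
Log2 ratio over control of the pool with greater weight loss (horizontal axis) against that with less weight loss (vertical axis) for the 12 Cyp4 probes with signal (purple) and the other probes with signal (grey); the dashed line marks equal ratios, and 154 of the 15713 probes lie outside the axes, which end at 1.2. Cyp4a12a, Cyp4a12b and Cyp4f14 lie below the dashed line and the Cyp4a10 and Cyp4a14 probes above it. Both axes share the same control pool.

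Among the Cyp4f enzymes, Cyp4f14 and Cyp4f15 pointed opposite ways. Cyp4f14, which hydroxylates leukotriene B4, lay at chr17:33042214-33042273 on the minus strand. It gave −0.28 and −0.06 for greater weight loss and −0.53 and −0.37 for less, and it was below 0 on all 4 arrays. With less weight loss its GALP signals were 3911 and 4011 units against 5656 and 5184 units for control. With greater weight loss they were 4400 and 3878 units against 5347 and 4029 units. The mean was −0.31 ± 0.20 (SD, n = 2; 95% interval −1.04 to 0.42; adjusted p = 0.63, limma). The fold with less weight loss was 0.73, but the software p-values of 0.0112 and 0.0736 missed the threshold.

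Cyp4f15, at chr17:32840088-32840147 on the plus strand, gave 0.41 and 0.30 for greater weight loss and 0.19 and 0.15 for less. Its GALP signals of 2958, 2399, 2677 and 2433 units all lay above its control signals of 2230, 1952, 2345 and 2191 units. Such a separation upwards held for 2.48% of the probes with signal. The mean was 0.26 ± 0.13 (SD, n = 2; 95% interval −0.20 to 0.73; adjusted p = 0.55, limma). With normexp background correction and loess, 1 of the 4 arrays turned below 0 (−0.12, less weight loss with GALP in Cy3).

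The neighbouring Cyp4f13 probe, at chr17:33062503-33062650 on the minus strand, was near 0. It gave 0.24 and 0.00 for greater weight loss and −0.04 and 0.01 for less, with a mean of 0.05 ± 0.10 (SD, n = 2).

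Cyp4b1 acts on medium-chain fatty acids and on foreign compounds and is best known from lung. Its probe, at chr4:115297527-115297586 on the minus strand, gave 0.21 and 0.04 for greater weight loss and 0.30 and 0.00 for less. The means of the pools, 0.13 and 0.15, were close together, which gave an SD of 0.02, the smallest of the 12 probes with signal. Its 95% interval of 0.06 to 0.22 left out 0, and this was the probe that passed at an unadjusted p. However, the arrays of a pool differed from each other by 0.16 and 0.29, more than the pools did. Its adjusted p was 0.38 (limma). The lung markers Scgb1a1, Sftpc, Sftpb, Sftpa1 and Ager were all without signal.

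Cyp4v3, the mouse counterpart of the human gene whose loss causes Bietti crystalline dystrophy, had the mean closest to 0. Its probe, at chr8:46391395-46391454 on the minus strand, gave −0.12 and 0.07 for greater weight loss and 0.02 and 0.03 for less, with a mean of 0.00 ± 0.04 (SD, n = 2; 95% interval −0.15 to 0.15).

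Of the 12 probes with signal, Cyp4a14, Cyp4b1 and Cyp4f15 were above 0 on all 4 arrays, as were 11.4% of all probes with signal. Cyp4a12a and Cyp4f14 were below 0 on all 4 arrays, as were 15.7% of all probes with signal. After centring each array on the median of the probes with signal, Cyp4a12a was at 0.01 on 1 array, that of greater weight loss with GALP in Cy3. The control pool, which was the same RNA on all 4 arrays, gave signals with a coefficient of variation of 5.39% to 14.9% over the 12 probes. Between the arrays of a pool the log2 ratios of the 12 probes differed by a median of 0.15 and by at most 0.47.

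Of 15 other Cyp4 genes listed, 7 were on the array and 2 had signal. Cyp4f18, an enzyme of leukotriene B4 breakdown in neutrophils, gave 0.22 and 0.25 for greater weight loss and 0.01 and 0.20 for less. The Cyp4f16 probe with signal followed the dye. It gave 1.1 and 2.2 on the arrays with GALP in Cy5 and −0.83 and −1.48 on those with GALP in Cy3, so its mean of 0.25 gives no direction. Neutrophil markers had signal for 2 of 7, S100a8 and S100a9. Their summed signal was at log2 ratios of 0.12 and 0.40 for greater weight loss and −0.10 and 0.07 for less. Elane, Mpo, Ngp and Camp, granule proteins of neutrophils, were without signal, and the part of neutrophils in the Cyp4f18 values was not tested.

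The other genes of the pathway were taken from lists and are given by the brightest probe of each gene. Cytochromes P450 receive electrons from Por (P450 oxidoreductase) and cytochrome b5, and carry haem. Of 7 genes for electron supply and haem, 1 was called higher and 0 lower. Por was the gene called higher, with log2 ratios of 0.88, 0.89, 0.89 and 0.87 on the 4 arrays and a mean fold of 1.84. Its mean of 0.88 was above that of every Cyp4 member. Alas1, the first enzyme of haem synthesis, gave 0.43 for greater weight loss and 0.71 for less and was not called. Hmox1, which breaks down haem, gave 0.37 and 0.14, and Cyb5b, a cytochrome b5 of the outer mitochondrial membrane, gave −0.28 and −0.28.

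After the hydroxylase, alcohol and aldehyde dehydrogenases turn the hydroxy fatty acid into a dicarboxylic acid. Of 10 genes listed for these steps, 8 had signal, 0 were called and the median log2 ratio was −0.00327. Adh4, an alcohol dehydrogenase, gave −0.69 for greater weight loss and −0.46 for less and was below 0 on all 4 arrays. Aldh3a2, the fatty aldehyde dehydrogenase, gave 0.04 and 0.24, and Acsl1, which activates fatty acids, gave 0.13 and 0.14.

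Dicarboxylic acids are shortened in peroxisomes. Of 17 peroxisomal genes, 16 had signal and 0 were called, with a median of 0.00. Acot4, a thioesterase for dicarboxylic acyl-CoAs, gave 0.23 for greater weight loss and 0.50 for less. Pex11a, which takes part in peroxisome division, gave 0.21 and 0.40. Crot, which makes carnitine esters of medium-chain acyl groups, gave −0.38 and −0.20.

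Of 24 PPARα target genes outside the family, 22 had signal and 0 were called, with a median of 0.06 (0.04 for greater weight loss and 0.11 for less). Cidec, a lipid droplet protein, gave 0.74 and 0.76. Angptl4, an inhibitor of lipoprotein lipase, gave 0.33 and 0.37, and Fgf21, a liver hormone, gave −0.08 and −0.55. The median over all genes with signal was −0.01, and Cyp4a14, at a mean of 0.15, lay above both medians. With greater weight loss alone, Cyp4a14 was at 0.04, close to the list. Cyp4a10, at 0.02 by its brightest probe, lay below the median of the list. Its probes 2 and 3, both at 0.04, also lay below, and probe 4, at 0.14, lay above. Of 10 receptors and partners of PPARα, 9 had signal and 0 were called. Nr0b2, a corepressor, gave −0.21 and −0.59, Ppargc1a, a coactivator, gave −0.27 and −0.29, and Nr1i3, the receptor CAR, gave 0.11 and 0.35.

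Of 12 genes for eicosanoids and fatty acid epoxides, 9 had signal and 0 were called, with a median of −0.11. Cyp2u1, a further omega-hydroxylase of arachidonic acid, gave −0.38 for greater weight loss and −0.77 for less. Cyp2c29, an epoxygenase, gave −0.17 and −0.13, and Ephx2, the soluble epoxide hydrolase, gave −0.11 and −0.17.

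Cyp4a12a is one of the genes of mouse liver with male-biased expression, and a list of other such genes was set beside it. Of 13 genes, 10 had signal, 0 were called higher and 3 lower, with a median of −0.19 for greater weight loss and −0.48 for less. Hsd3b5, a steroid dehydrogenase, gave −1.76 and −4.49, Slco1a1, an organic anion transporter, gave −1.04 and −2.96, and Elovl3, a fatty acid elongase, gave −0.89 and −1.51. Cyp7b1, an oxysterol hydroxylase, gave 0.04 and −0.59. Selenbp2, a selenium-binding protein, gave 0.93 and −0.08. Of 14 female-biased genes, 10 had signal, 1 was called higher and 0 lower, with medians of 0.32 and 0.605. Acot3, an acyl-CoA thioesterase, was the gene called higher and gave 0.98 and 1.15. Of those not called, Fmo2 gave 0.85 and 1.03, Cyp2a4 0.60 and 0.58, and Cyp2b13 0.31 and 0.70. The values of the Cyp4a12a probe belong to the Cyp4a12 pair, and their relation to these genes was not tested.

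**Figure D4:**
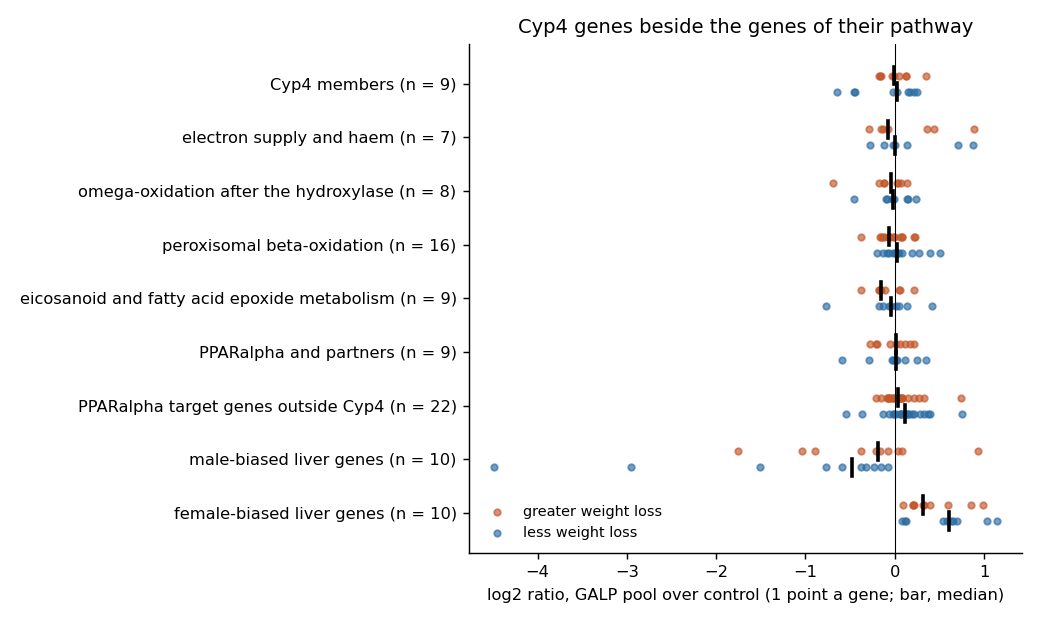
Log2 ratio over control (horizontal axis) of each gene with signal in the pool with greater (orange) and with less weight loss (blue), for the 9 Cyp4 genes and 8 lists of related genes; black bars are medians and n counts the genes. The Cyp4 medians lie near 0, at −0.01 and 0.03, and the medians of the male-biased genes lie to the left and those of the female-biased genes to the right of 0.

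Markers of other cell types are given as the log2 ratio of their summed signal on the 4 arrays. The sum of the 7 Kupffer cell markers was at 0.15 to 0.31, with 1 of them, Marco, called higher. Marco, Adgre1, Csf1r and Cd5l were above 0 in both pools and Timd4 was below 0 in both. Vsig4 and Clec4f were below 0 with greater weight loss and above 0 with less. The sum of 5 stellate cell markers with signal was at 0.19 to 0.27. The sums of the 6 sinusoidal endothelium markers ranged from −0.22 to 0.05. Those of the 4 bile duct markers with signal ranged from −0.20 to 0.46, with the higher values in the pool with less weight loss. Of these, Spp1 gave −0.18 for greater weight loss and 0.37 for less. Krt19 gave −0.82 and −0.10, Krt7 −0.21 and 0.00, and Sox9 −0.07 and −0.21. Hepatocyte markers ranged from −0.17 to −0.02. Kidney, which also expresses Cyp4a and Cyp4b1, was represented by 9 markers, of which Aqp2 had signal, while Kap, Umod and Slc34a1 were without signal. Of 6 adipose markers, 3 had signal, with sums at −0.72 and −0.58 for greater weight loss and 0.21 and 0.17 for less. The 3 did not move together. Cidea gave −0.67 for greater weight loss and 0.24 for less, Adipoq 0.38 and −0.26, and Cfd −0.89 and −0.74. The part of these cell types in the Cyp4 values was not tested.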

How the data were processed

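Liver RNA of 2 GALP pools was compared with the same control pool on 4 dual-colour arrays of 1 slide. Per the file headers, the processed intensity of a channel was made with Feature Extraction 12.0.3.1 by background subtraction and LOWESS dye normalization. The submitters' processing notes name version 11.0.1.1. A spot's deposited log10 ratio sets Cy5 over Cy3, and its deposited p-value comes from the error model of the software. The series table that the authors deposited, an alternative here, had the same log10 ratios with GALP as numerator, except where the software had written 0 (29.6% to 35.3% of the spots of an array). Its array medians were between −0.13 and 0.02 on the log2 scale.

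Ratios were put on the log2 scale with GALP as numerator, by the dyes in the labels. Spots with an outlier mark (232 to 319 of 43379 an array) were left out, and means were taken over spots of a probe and then over the arrays of a pool. The control channel also has a weight loss group in the labels. The paper describes 1 control pool, which was followed here. Probes were tested with limma 3.58.1 (R 4.3.3) on the 2 pool ratios against 0, with Benjamini-Hochberg adjustment over 41037 probes and 1 residual degree of freedom. Precision is limited by the number of arrays and, for the test, of pools.

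The members, lists and tests were chosen with earlier results of these data known. The text names all members. Of each list of related genes it names the called genes and up to 3 others with the largest mean log2 ratio in either direction. One item of the lists is not reported here. Genes are represented by their brightest probe (highest mean signal). Alternatives were normexp (offset 50) with loess, centring, the series table, no outlier filter, only probes with signal, each dye orientation, each array left out, each pool alone, other p rules, an intensity trend, the pool as a random block, and all probes of a gene. Centring on the probes with signal was added after the values were seen. Names of listed transcripts came from RefSeq (GRCm38.p6). The scripts were tested on simulated data, where limma over all probes recovered no changed probe and the rule missed most changes close to its own thresholds. Python 3.11.15, numpy 2.4.6, pandas 2.3.3, matplotlib 3.10.9 and the R package data.table (version 1.17.8) were used.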

Additional observations from a re-analysis of the deposited data

Results flagged for a closer look

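In the pool with greater weight loss both arrays of Cyp4a10 probe 1 lay below 0 and in the pool with less weight loss both lay above 0, so that the pools differed by −0.40 (greater minus less) on the log2 scale. The other probes of Cyp4a10 did not show opposite signs on every array. Of the genes named beside the family, Selenbp2 differed by 1.01 and Cyp7b1 by 0.64 (greater minus less), with both arrays of the pool with greater weight loss above 0 and both of the pool with less weight loss below 0. These differences were not tested, since each group is 1 pool. Of all probes with signal, 5.82% had pools on opposite sides of 0 on every array.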

How the results depend on the processing

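No paired analysis was possible because the replicate numbers name the dye orientation within a pool and pair no mice. The count of Cyp4 probes called by the rule of the methods was 0 each way under every alternative run, except that 1 probe, Cyp4a12a, was called lower in the pool with less weight loss alone. The limma count was also 0, but the fit over all probes recovered no changed probe in simulated data, so it says nothing on how the results depend on these choices. The median log2 ratio of the Cyp4 genes, 0.0205, became 0.10 with only the arrays with GALP in Cy5, −0.00506 in the pool with greater weight loss alone and 0.0537 with all probes of a gene. With 1 array left out it ran from −0.00748 to 0.10, the lowest without the array of greater weight loss with GALP in Cy5 and the highest without the array of greater weight loss with GALP in Cy3. It moved by less than the spread between pools with the other alternatives. The cause was not tested. Centring on the array median changed nothing, as that median was 0 on all arrays.

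Of 181 probe values under the alternatives, 162 stayed within 1 SD of the reported value and 19 did not. Part of this count was fixed in advance. Centring on the array median, the series table, no outlier filter and only probes with signal left the values unchanged to rounding. A pool taken alone cannot lie further than 1 SD from the mean of both pools. Cyp4a12a ran from −0.65 to −0.16, Cyp4a12b from −0.45 to −0.01, Cyp4f14 from −0.45 to −0.17, Cyp4f15 from 0.17 to 0.35 and Cyp4a14 from 0.04 to 0.25. None of them changed sign in 14 alternatives, which include the settings that left the values unchanged. The extremes are the pools taken alone. The design holds 2 pools and 1 control pool, so no result separates GALP from the particular mice pooled.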
